A study of Mus musculus with 12 samples.

Results

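The genes described here encode the core enzymes of mitochondrial beta-oxidation. They were taken by symbol as a fixed set of 10, namely Acadvl, Acadl, Acadm, Acads, Hadha, Hadhb, Echs1, Hadh, Acaa2 and Eci1. All 10 were found among the 43686 rows of the deposited table, and all 10 were among the 17155 rows with enough counts to be tested. Cardiac mRNA was sequenced from 6 control libraries (WT) and 6 mutant libraries (KO) made from ventricular wall of mice of the strain C57BL/6 (C57BL/6J in the methods of the study), labelled as 2 months old, although the text of the study also gives other ages. Both groups carried floxed Sdhaf4 alleles (Sdhaf4fl/fl). The KO mice in addition carried Ckmm-Cre, which is driven by the muscle creatine kinase promoter and deletes the gene in cardiac and skeletal muscle, so that the other cells of the heart keep it. The WT mice were littermates without Cre, and no group carried Cre on unfloxed alleles, so an effect of Cre itself and of the deletion cannot be told apart. The libraries are numbered in the labels without naming the animals, and the p-values therefore measure the spread between these libraries.

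In beta-oxidation, a fatty acyl-CoA inside the mitochondrial matrix is shortened through a repeating cycle of dehydrogenation, hydration, a further dehydrogenation and thiolytic cleavage. Each turn releases acetyl-CoA, which enters the tricarboxylic acid cycle, and delivers electrons to the respiratory chain through the electron transfer flavoprotein and through NADH. The healthy adult heart obtains most of its ATP from this pathway. SDHAF4 is an assembly factor of succinate dehydrogenase (complex II), the enzyme shared by the tricarboxylic acid cycle and the respiratory chain.

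Between 23747014 and 27159228 reads were counted per WT library and between 26542930 and 31393393 per KO library. Values are given as CPM, counts scaled to a common library total, after TMM scaling, which adjusts the totals for differences in composition. Sdhaf4, the targeted gene, was at 14.3 to 30.3 CPM in WT (median 26.7) and at 2.25 to 2.73 CPM in KO (median 2.35), a log2 fold change of -3.39 (SE 0.159, adjusted p = 1.95e-10, edgeR), so no library went against its label. KO replicates 3 and 5 had the largest shares of their counts in these genes among the KO libraries, 0.866% and 0.833%. After TMM scaling, KO replicate 3 had the highest level of the 6 KO libraries for 9 of the 10 genes, against 22.7% of all rows tested. Hadhb was highest in KO replicate 5. Scaled by library total alone, KO replicate 5 also exceeded KO replicate 3 in Acads (143 and 141 CPM) and Eci1 (213 and 208 CPM). KO replicate 3 also had the largest total count. Its summed cardiomyocyte markers, at 67173 CPM, were above those of every WT library (56439 to 62137 CPM).

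Beta-oxidation transcripts were lower in the KO hearts. Of the 10 genes, 9 were lower and 0 were higher at an adjusted p under 0.05 (edgeR quasi-likelihood test, Benjamini-Hochberg adjustment over all rows tested), where 25.5% of all rows were lower and 25.6% were higher. The median log2 fold change of the 10 was -0.71, against 0.00 over all rows tested. In the same 9 genes every KO library lay below every WT library, which held for 15.2% of all rows. With 6 libraries against 6, this separation gives the smallest p that a two-sided exact permutation test allows, 0.00216, for each gene. Acaa2 and Eci1 also passed the stricter threshold of an adjusted p under 0.005 with a log2 fold change under -1, which 4.87% of all rows passed, and 5.36% passed it in the other direction. Together the 10 genes took 1.10% to 1.15% of all counts in WT and 0.677% to 0.866% in KO. In bulk tissue, fewer cells of a type and less RNA per cell cannot be told apart.

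**Figure D1:**
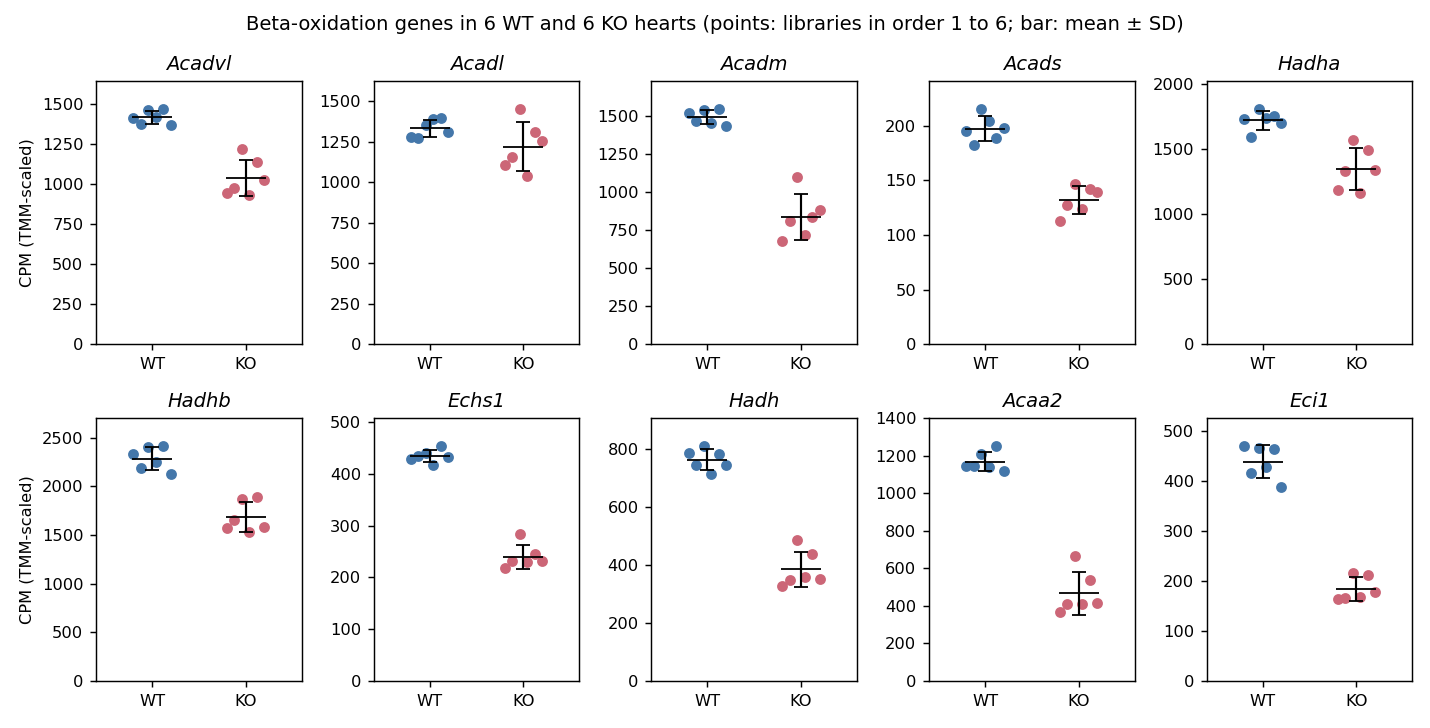
Level of each of the 10 genes in each library, in TMM-scaled CPM on an axis that starts at 0; points are libraries in order 1 to 6 from left to right, and bars are mean ± SD (n = 6). The WT and KO points are separate in 9 panels, and in Acadl the highest KO point (KO replicate 3, 1449 CPM) lies above every WT point.

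The first step of each turn is carried out by acyl-CoA dehydrogenases of graded chain-length preference, and their transcripts differed widely in how far they fell. Acadvl (chr11:72626748-72631976, minus strand), for very long chains, was at 1369 to 1469 CPM in WT (median 1419) and at 934 to 1218 CPM in KO (median 1000). The groups did not overlap, and the highest KO value belonged to replicate 3. The log2 fold change was -0.45 (SE 0.067, adjusted p = 2.9e-05, edgeR), or 73.2% of the WT mean. The span of Acadvl shares 2119 bases with Dvl2, on the opposite strand, and whether reads were counted by strand is not given in the sources used here. Dvl2 itself went from 155 to 120 CPM (log2 fold change -0.38, adjusted p = 0.0233).

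Acadl (chr1:69680486-69711361, minus strand), the long-chain enzyme, was the exception among the 10 genes. It was at 1274 to 1392 CPM in WT (median 1331) and at 1037 to 1449 CPM in KO (median 1203). Of the KO libraries, 4 lay below the lowest WT library, 1 lay above the highest WT library (replicate 3), and the remaining 1 (replicate 5) lay within the WT range. The log2 fold change of -0.13 (SE 0.073) did not pass the test (adjusted p = 0.150, edgeR; two-sided exact permutation p = 0.117). Without KO replicate 3 it was -0.19 and passed (adjusted p = 0.0145), which makes 10 of 10 genes lower. Of the 22 fits made in all, it passed in that 1.

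Acadm (chr3:163034862-163058266, minus strand), the medium-chain dehydrogenase, had the largest fall of the 4 dehydrogenases. It was at 1431 to 1542 CPM in WT (median 1490) and at 678 to 1099 CPM in KO (median 821). Replicate 3 was the highest KO library and replicate 1 the lowest. The log2 fold change was -0.83 (SE 0.092, adjusted p = 1.11e-06, edgeR), and without KO replicate 3 it was -0.93. Acads (chr5:122493722-122502773, minus strand), for short chains, was the least counted of the 10, at 183 to 215 CPM in WT (median 197) and at 112 to 146 CPM in KO (median 134). Its groups did not overlap either, with a log2 fold change of -0.58 (SE 0.064, adjusted p = 1.01e-06).

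The mitochondrial trifunctional protein handles long chains on the inner membrane and combines hydratase, dehydrogenase and thiolase activities. Its alpha subunit Hadha, which carries the hydratase and dehydrogenase, was at 1590 to 1803 CPM in WT (median 1730) and at 1163 to 1568 CPM in KO (median 1333). Its beta subunit Hadhb, which carries the thiolase, was at 2123 to 2415 CPM in WT (median 2287) and at 1531 to 1889 CPM in KO (median 1620). In both subunits every KO library lay below every WT library. The log2 fold changes were -0.35 for Hadha (SE 0.073, adjusted p = 0.00063) and -0.44 for Hadhb (SE 0.066, adjusted p = 3.15e-05, edgeR). Apart from Acadl, Hadha had the value nearest to 0, and Hadhb was close to Acadvl (-0.45). Hadhb was the gene in which KO replicate 5, at 1889 CPM, exceeded replicate 3.

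Hadha and Hadhb lie head to head on chromosome 5. In the coordinates of the deposited table, Hadha (chr5:29818605-29857005, minus strand) and Hadhb (chr5:29857091-29889562, plus strand) are separated by 85 bases. In RefSeq on GRCm38.p6 their start sites are 273 bases apart, and the windows from 250 bases before to 50 bases after each start site share 228 bases. The stretch before the Hadhb start site (chr5:30155003-30155252, plus strand, GRCm38.p6) is shown because the gene pair shares it, with the bases that also belong to the Hadha window in capitals.
Hadhb: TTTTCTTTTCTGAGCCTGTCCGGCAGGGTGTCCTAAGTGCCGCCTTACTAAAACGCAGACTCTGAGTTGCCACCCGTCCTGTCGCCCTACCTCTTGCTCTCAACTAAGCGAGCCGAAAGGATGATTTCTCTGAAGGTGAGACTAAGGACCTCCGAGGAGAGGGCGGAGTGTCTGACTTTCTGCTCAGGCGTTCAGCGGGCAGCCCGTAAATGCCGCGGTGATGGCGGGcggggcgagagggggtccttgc
The ratio of Hadha to Hadhb counts within a library was 0.724 to 0.801 in WT and 0.754 to 0.845 in KO, so the ranges overlapped. The log2 ratio was higher in KO by 0.08 (95% interval 0.00273 to 0.166), with an adjusted p of 0.0498 (two-sided exact permutation test, adjusted over 8 pairs). It did not pass when any 1 of 9 of the 12 libraries was left out, where the difference was 0.07 to 0.09 and the adjusted p reached 0.0952.

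The soluble matrix enzymes that finish the cycle on shorter chains had the larger falls. Echs1 (chr7:150525844-150536333, minus strand), the short-chain enoyl-CoA hydratase, was at 418 to 454 CPM in WT (median 434) and at 218 to 283 CPM in KO (median 231). Hadh (chr3:138750215-138788900, minus strand), the hydroxyacyl-CoA dehydrogenase for medium and short chains, was at 714 to 811 CPM in WT (median 764) and at 329 to 485 CPM in KO (median 355). The KO libraries of both genes were all well below the WT range, and replicate 3 was again the highest of them. The log2 fold changes were -0.86 for Echs1 (SE 0.059, adjusted p = 5.07e-09) and -0.99 for Hadh (SE 0.085, adjusted p = 6.8e-08, edgeR), or 55.2% and 50.4% of the WT mean.

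Acaa2 (chr18:77396621-77428582, plus strand), the matrix thiolase that releases acetyl-CoA, had the largest fall of the 10. It was at 1120 to 1253 CPM in WT (median 1145) and at 365 to 664 CPM in KO (median 412). The log2 fold change was -1.32 (SE 0.123, adjusted p = 4.97e-07, edgeR), and without KO replicate 3 it was -1.46. Eci1 (chr17:24451823-24467373, plus strand), the enoyl-CoA isomerase that moves the double bond of unsaturated fatty acids so that they can enter the cycle, was at 388 to 470 CPM in WT (median 446) and at 163 to 217 CPM in KO (median 173). Its groups were far apart, with a log2 fold change of -1.25 (SE 0.079, adjusted p = 1.86e-09). Without KO replicate 3 the value was -1.31, and Hadh, at -1.07, then also passed the stricter threshold. Hadh passed it as well without KO replicate 5 (-1.03) or without WT replicate 4 (-1.02).

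**Figure D2:**
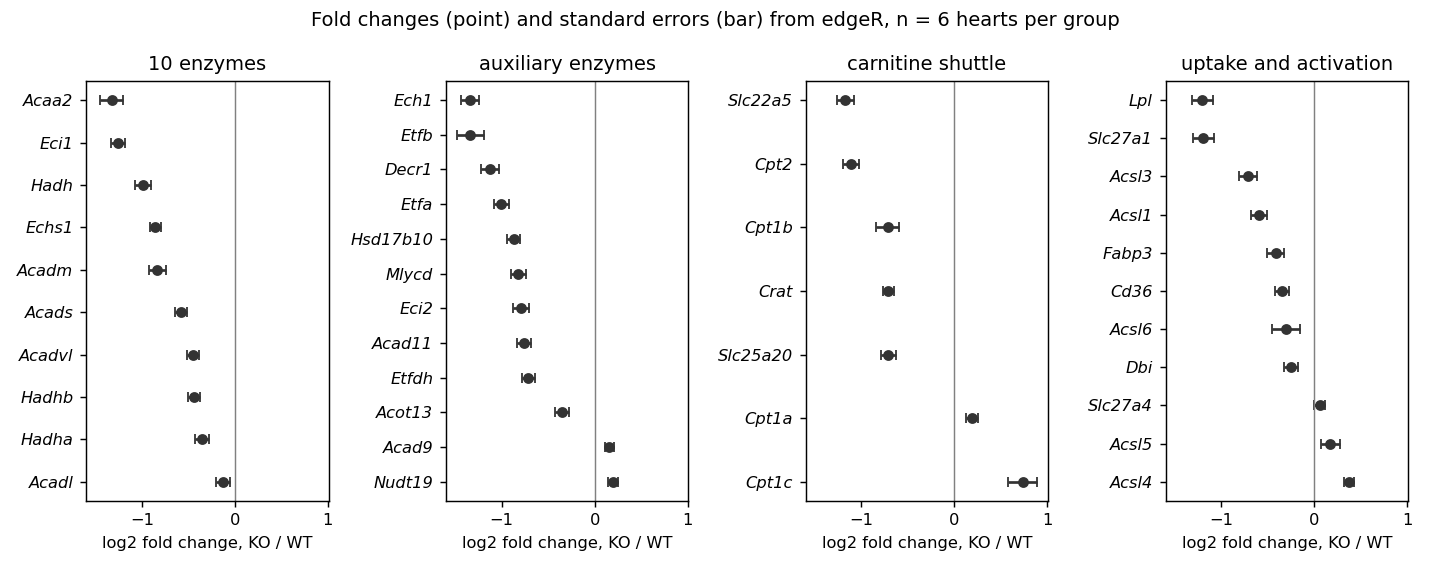
Log2 fold change of KO over WT (points) with standard errors (bars) from edgeR, n = 6 libraries per group, for the 10 enzymes and for 3 lists of neighbouring steps; the line marks 0. The 10 enzymes run from -1.32 (Acaa2) to -0.13 (Acadl), and the highest gene of each other list lies to the right of 0.

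Whether the enzymes fell by different amounts was examined with ratios of counts within each library, which do not depend on the scaling of the libraries. Of 8 pairs compared, all 8 passed at an adjusted p under 0.05 (two-sided exact permutation test), with 5 ratios lower and 3 higher in KO. Acadl and Acadvl, which act on neighbouring chain lengths, had a ratio of 0.903 to 0.977 in WT and of 1.11 to 1.22 in KO. In log2 the ratio was higher by 0.32 in KO (95% interval 0.263 to 0.375, adjusted p = 0.00289), with no overlap. Acadm relative to Acadl moved the other way, from 1.05 to 1.19 in WT down to 0.613 to 0.758 in KO. The log2 difference was -0.71 (95% interval -0.829 to -0.599, adjusted p = 0.00289). Acadl thus went from the less counted to the more counted transcript of both pairs in every library. Acads relative to Acadm was higher in KO by 0.27 (95% interval 0.117 to 0.415, adjusted p = 0.00989), although KO replicate 3 lay within the WT range.

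The matrix enzymes fell further than the trifunctional subunit with the same activity. The ratio of the thiolases Acaa2 and Hadhb was 0.492 to 0.527 in WT and 0.232 to 0.355 in KO, a log2 difference of -0.91 (95% interval -1.11 to -0.714). Hadh relative to Hadha differed by -0.64 (95% interval -0.756 to -0.529) and Echs1 relative to Hadha by -0.50 (95% interval -0.604 to -0.401). Eci1 fell further than Echs1, with a log2 difference of -0.40 (95% interval -0.525 to -0.272). None of these 4 ratios overlapped between the groups, and the adjusted p was 0.00289 for each (two-sided exact permutation test). For Acaa2 and Hadhb, replicate 3 was the KO library nearest to WT.

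**Figure D3:**
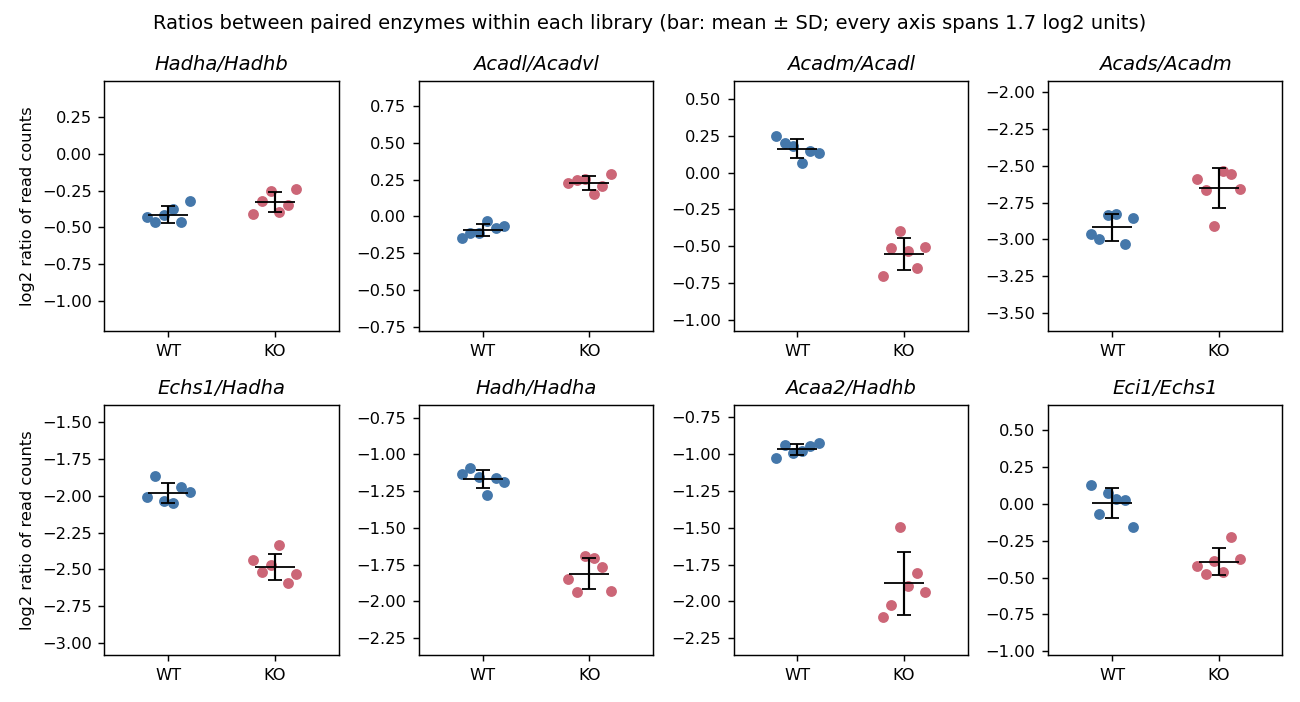
Log2 ratio of the read counts of 8 pairs of enzymes within each library; points are libraries in order 1 to 6, bars are mean ± SD (n = 6), and every axis spans the same number of log2 units. Of the 8 pairs, Hadha/Hadhb and Acads/Acadm overlap between the groups, and Acaa2/Hadhb shows the largest shift (-0.91).

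The 10 genes varied together from library to library, and more among the KO than among the WT libraries. The SD of log2 CPM was larger in KO in 10 of 10 genes, against 58.9% of all rows tested. Its median was 0.0613 in WT and 0.174 in KO, where all rows had 0.158 and 0.180. Averaged over the 10 genes, KO replicates 3 and 5 lay 0.283 and 0.139 above the KO mean on the log2 scale. KO replicates 1 and 4 lay at -0.187 and -0.142. The WT libraries lay between -0.0548 and 0.0632 of their own mean. On the path from the mean of the other KO libraries to the WT mean, KO replicate 3 had covered a median fraction of 0.420 over the 10 genes and KO replicate 5 of 0.224. After each value was taken as a deviation from its group mean, all 45 pairs of the 10 genes correlated positively over the 12 libraries (Pearson r 0.615 for Acads and Hadhb to 0.970 for Hadh and Acaa2, median 0.856). These points share their library, its depth and its cell composition, and the correlations are given as a description.

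**Figure D4:**
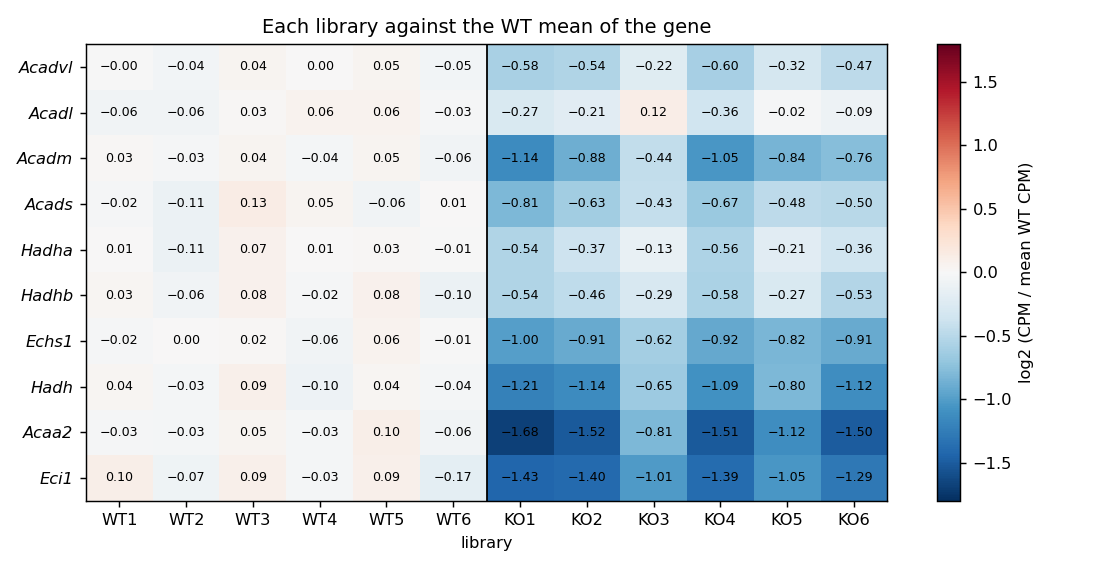
Log2 ratio of each library's CPM to the mean WT CPM of the gene, with genes in rows and the 12 libraries in columns (colour scale in log2 units, blue below and red above the WT mean). The KO columns are below the WT mean in every row except Acadl in replicate 3 (1449 CPM), and replicates 3 and 5 are the palest KO columns.

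The 8 genes whose deviations over the 12 libraries were most like the mean of the 10 were taken from 10034 annotated genes with a mean of at least 5 CPM, by Pearson r. Lpl (lipoprotein lipase, r = 0.942), Eci2 (an enoyl-CoA isomerase, r = 0.936) and Ech1 (a dienoyl-CoA isomerase, r = 0.932) were among them. Ndufb8, a complex I subunit, and Uqcrfs1, the Rieske protein of complex III, were also of the 8 (r = 0.935 and 0.932), as were Asb14 (r = 0.943), Gstk1 (r = 0.939) and Klhl38. Klhl38 had the highest r, 0.947, while its level did not pass the test between the groups (log2 fold change -0.06, adjusted p = 0.813, edgeR).

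Some markers of the heart's cell types also differed between the groups, where 25.5% of all rows were lower and 25.6% higher. The same shares stand beside each list below. The part of the markers in these results was not tested. Of the 11 cardiomyocyte markers tested, 5 were lower and 2 higher in KO, from Tnni3 (log2 fold change -0.89) to Mybpc3 (1.05), and none was at 0. Without KO replicate 3, 7 of these markers were lower, and without WT replicate 3 or 5, 6 of them were. Their summed level was 48924 to 67173 CPM in KO. When the counts of each enzyme were divided by the summed counts of these 11 markers in the same library, 7 of the 10 genes still had every KO library below every WT library. Acadl, Hadha and Hadhb then overlapped, and KO replicate 3 was the highest KO library for 1 gene, Acadm. On this scale Acaa2 was at 18.4 to 21.4 reads per 1000 marker reads in WT and at 7.43 to 10.5 in KO, and Eci1 at 6.38 to 7.93 and 3.03 to 4.11.

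Of 10 fibroblast and matrix markers, 8 were higher and 2 lower, from Dpt (-0.46) to Postn (3.54), and their sum was 3068 to 3638 CPM in WT and 4099 to 6334 CPM in KO. The endothelial sum was 1504 to 1693 CPM in WT and 1557 to 1872 CPM in KO, with 4 of 8 markers higher and 2 lower (Cldn5 -0.78 to Egfl7 0.43). With 1 library left out, 3 to 4 endothelial markers were higher (4 only without KO replicate 3 or 4 or WT replicate 1 or 3). The macrophage sum was 256 to 353 CPM in WT and 256 to 408 CPM in KO, with 2 of 9 markers lower (Adgre1, -0.62, and Csf1r, -0.26) and 1 higher (Mrc1, 0.43). The highest macrophage value, 0.59 for Fcgr1, did not pass (adjusted p = 0.058, edgeR). Leaving out 1 library gave 1 to 3 macrophage markers lower (1 without KO replicate 2, 3 or 6 or WT replicate 3, 4 or 6) and 1 to 2 higher (2 without KO replicate 6 or WT replicate 1). All 7 adipocyte markers together summed to 0.976 to 2.20 CPM in WT and 0.0978 to 1.10 CPM in KO, and thus were near 0. Adig was the 1 of the 7 with enough counts to be tested, and it was lower in KO (0.957 to 0.0928 CPM), while the other 6 had at most 24 counts in any library. Of 8 skeletal muscle markers, 4 could be tested and 3 were lower. Ckm, the muscle creatine kinase that cardiomyocytes also express, made up nearly all of their sum and fell from 2118 to 1095 CPM (log2 fold change -0.95, adjusted p = 6.9e-09, edgeR). Tnni2 (2.07 to 0.454 CPM) and Mylpf (1.38 to 0.392 CPM) were also lower, and Tnnt3 (0.986 to 1.55 CPM, adjusted p = 0.373) did not pass.

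The auxiliary enzymes of beta-oxidation, which handle unsaturated chains, electron transfer and acyl-CoA turnover, were mostly lower as well. Of the 12 tested, 10 were lower and 2 higher, with a median log2 fold change of -0.80. Ech1, a dienoyl-CoA isomerase for unsaturated chains, was at 1363 to 1747 CPM in WT and at 492 to 741 CPM in KO (log2 fold change -1.34, adjusted p = 2.05e-08). Nudt19, a peroxisomal CoA diphosphatase, was the highest at 0.20 (adjusted p = 0.0031, edgeR).

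The carnitine shuttle brings long acyl chains into the matrix. Of the 7 genes listed for it, 5 were lower and 2 higher, with a median of -0.71. Slc22a5, which takes up carnitine from the blood, fell from 31.4 to 13.9 CPM (log2 fold change -1.17), and Cpt2, the inner-membrane carnitine palmitoyltransferase, fell from 231 to 107 CPM (-1.12). Slc25a20, the carnitine-acylcarnitine carrier, and Crat, carnitine acetyltransferase, both had a log2 fold change of -0.71 (277 to 169 and 507 to 310 CPM). The row of Crat overlaps other rows with counted reads. The Cpt1 isoforms did not move together. Cpt1a, the liver-type isoform, went from 108 to 123 CPM (0.19, adjusted p = 0.0225) and Cpt1c, the brain-type isoform, from 3.12 to 5.19 CPM (0.73, adjusted p = 0.000867). Cpt1a did not pass without KO replicate 1 (adjusted p = 0.0514) or without KO replicate 3 (adjusted p = 0.0584). The muscle isoform Cpt1b went from 13.8 to 8.40 CPM (-0.72, adjusted p = 0.000107), but its row lies wholly inside that of Chkb (64.1 to 46.0 CPM), and how reads were split between them is not given in the sources used here.

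Of 11 genes for uptake and activation of fatty acids, 7 were lower and 1 higher, with a median of -0.35. Lpl, which frees fatty acids from circulating triglyceride, was at 6125 to 6894 CPM in WT and at 2100 to 3760 CPM in KO (log2 fold change -1.20, adjusted p = 2.27e-07), and Acsl4, an acyl-CoA synthetase with a preference for arachidonate, went from 20.8 to 26.9 CPM (0.37, adjusted p = 1.42e-05). Of 14 peroxisomal genes tested, 9 were lower and 1 higher, with a median of -0.41. Ehhadh, the peroxisomal bifunctional enzyme, fell from 60.0 ± 15.0 to 7.11 ± 1.68 CPM (SD, n = 6; log2 fold change -3.07, adjusted p = 4.04e-08), a value further from 0 than that of any of the 10 mitochondrial enzymes. Acox2, at about 1 CPM, had the highest value of that list and did not pass (0.25, adjusted p = 0.475).

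The regulators known to control this pathway include the PPAR and ERR families and their coactivators. Of 13 tested, 3 were lower and 2 higher, with a median of -0.06, where 25.5% of all rows were lower and 25.6% higher. Esrra, of the ERR family, was not tested. Rxra, the partner of the PPARs on DNA, fell from 98.7 to 66.4 CPM (-0.57, adjusted p = 7.63e-08, edgeR). The other lower genes were Rxrb (-0.40, adjusted p = 5.2e-06) and Rxrg (-0.19, adjusted p = 0.0485, edgeR). The 2 higher genes were Perm1 and Ppara. Perm1, a muscle regulator of mitochondrial genes, rose from 160 to 229 CPM (0.51, adjusted p = 1.52e-06, edgeR). Ppara, of the PPAR family, rose from 24.5 to 32.6 CPM (0.41, adjusted p = 0.000884, edgeR). A reference list of 15 other nuclear-encoded mitochondrial genes had 8 lower and 3 higher with a median of -0.15, from Hspe1 (-0.80) to Lonp1 (0.48).

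Levels can be compared between the enzymes only per length of transcript. On the deposited FPKM scale, which divides counts by a gene length and the library total, the WT order was Acadm (1876 ± 39.3, SD, n = 6), Hadhb (1540 ± 54.2), Acadvl (1272 ± 15.7), Hadha (1083 ± 33.4), Acadl (1037 ± 29.3), Acaa2 (770 ± 23.9), Eci1 (401 ± 24.4), Hadh (275 ± 11.6), Echs1 (198 ± 5.87) and Acads (155 ± 8.5). Of these neighbours, Hadha and Acadl overlapped. In KO the order was Hadhb, Acadm, Acadl, Acadvl, Hadha, Acaa2, Eci1, Hadh, Echs1 and Acads, and 7 of the 9 neighbouring pairs overlapped. Of the summed FPKM of the 10 genes, Acadl made up 12.05% in WT and 16.5% in KO, and Acaa2 8.95% and 5.35%.

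The order in WT depended on the length used. The FPKM of Acadm corresponds to a length of 793 bases, whereas the length column of the same table gives 2041 bases, and the FPKM of Acaa2 corresponds to 1515 bases in both. With the length column, Acaa2 came first in WT (770 in the unit of FPKM) and Acadm second (729). With the longest coding transcript of GENCODE M21, which is annotated on another assembly, Hadhb came first (1114) and Acaa2 second (770). Acads had the lowest WT mean on all 3 scales, but with the length column its libraries (91.1 to 104.8) overlapped those of Echs1 (100.9 to 108.8).

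**Figure D5:**
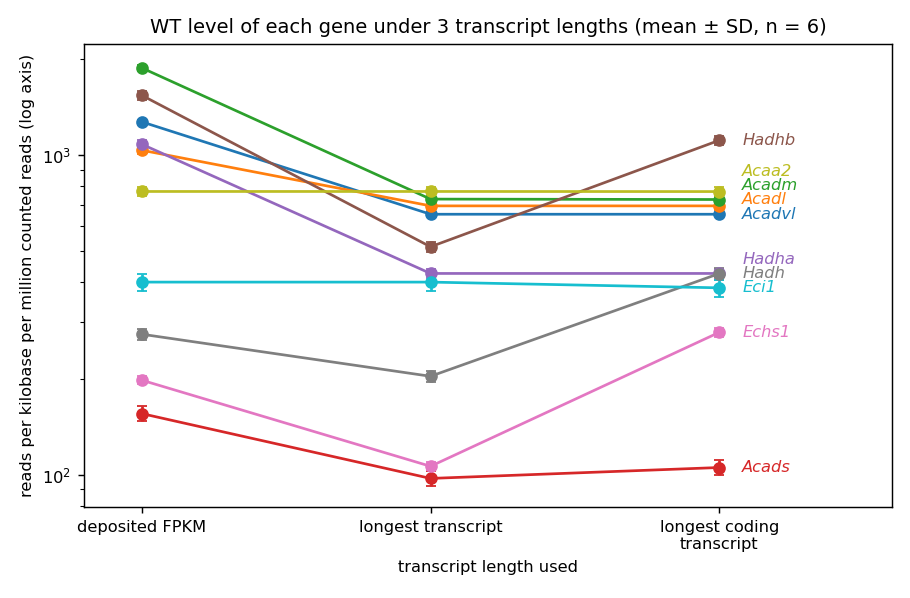
WT level of each gene in the unit of FPKM (log axis; mean ± SD, n = 6) under 3 choices of transcript length, joined by lines. Acadm leads with the deposited FPKM, Acaa2 with the longest transcript and Hadhb with the longest coding transcript, while Acads has the lowest mean under each and overlaps Echs1 with the longest transcript.

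Since the genes moved together, their promoters were read for motifs of known regulators of the pathway. RefSeq windows on GRCm38.p6, from 250 bases before to 50 bases after the start site, were matched by symbol for 9 of the 10 genes (all but Acaa2), and exact letters were searched on both strands. The direct repeat bound by PPAR and RXR (AGGTCA, any 1 base, AGGTCA) was in 0 of the 9 windows and in 0.0396% of all 32851 windows. The ERR site (TCAAGGTCA) was in 0 of 9 and in 0.423% of all, and the NRF-1 site (GCGCA, any 1 base, GCGC) in 0 of 9 and in 4.6% of all. The nuclear receptor half-site AGGTCA, which both of the first motifs contain, was in 3 of 9 (Acadvl, Acadm and Echs1) and in 16.3% of all windows, and CCAAT was in 1 of 9 (Hadh) and in 37.4% of all. The half-sites start 87 bases before the start site in Acadvl (chr11:70015500-70015525), 249 in Acadm (chr3:153944877-153944893, where it reads on the other strand) and 83 in Echs1 (chr7:140116489-140116514). They are shown on the minus strand, the strand of all 3 genes, with the half-site in capitals and up to 10 bases on either side.
Acadvl: ggatcaccctAGGTCAggtagaatac
Acadm: gTGACCTtcgggctccg
Echs1: cagcccgctcAGGTCAcgggtccacc
A match is a description of the letters and not of a bound site. The PPAR and RXR, ERR and NRF-1 motifs are rare over all windows, so their absence from so few windows cannot be told from chance. Sites with other letters or outside the windows were not searched.

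The windows held 9 (Acadvl) to 34 (Acadl) CG dinucleotides with a median of 17, against a median of 7 over all windows. A relation between this number and the fold change was not tested. Acadvl (9) and Hadhb (24) had nearly the same log2 fold change, -0.45 and -0.44. Acadl, the gene with the smallest change, and Eci1, with the largest change among the genes with a window, are shown for their 250 bases before the start site with CG in capitals. The stretch of Acadl (chr1:66863310-66863559, minus strand, GRCm38.p6) holds 25 CG dinucleotides and that of Eci1 (chr17:24426433-24426682, plus strand) holds 11.
Acadl: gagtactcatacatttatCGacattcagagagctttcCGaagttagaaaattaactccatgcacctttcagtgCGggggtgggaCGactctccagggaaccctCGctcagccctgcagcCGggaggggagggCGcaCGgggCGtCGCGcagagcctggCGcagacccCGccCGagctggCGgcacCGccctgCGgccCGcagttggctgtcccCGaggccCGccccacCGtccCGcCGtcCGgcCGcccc
Eci1: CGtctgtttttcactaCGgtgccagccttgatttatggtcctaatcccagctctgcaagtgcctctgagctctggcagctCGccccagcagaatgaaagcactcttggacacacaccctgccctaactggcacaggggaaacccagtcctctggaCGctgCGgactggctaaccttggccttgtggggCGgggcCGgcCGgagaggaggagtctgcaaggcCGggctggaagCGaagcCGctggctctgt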

How the data were processed

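Cardiac poly-A mRNA of 6 WT and 6 KO ventricular wall samples had been sequenced after TruSeq library preparation. Per the submitters' processing notes, HISAT2 2.0.5 and the build mm10 were used. The authors counted reads per gene with HTSeq and deposited raw counts, and the deposited FPKM of each library was used for levels. The gene identifiers belong to the C57BL/6NJ assembly, and the start and end of none of the 10 genes equal those of GRCm38 (0 of 10), so coordinates are given as in the table. The deposited group means, a signal that the authors scaled for library size, and the fold changes and p-values of the authors were not used.

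The main test was that of edgeR 4.0.16 (R 4.3.3; filterByExpr, TMM, robust quasi-likelihood test, genotype only, Benjamini-Hochberg adjustment over 17155 rows). Ratios between genes were tested with exact permutation tests over the libraries, with 95% intervals from the pooled SE. Alternatives were DESeq2 1.42.0, limma-voom (limma 3.58.1), other scalings and filters, a replicate block, and each library left out in turn. Dividing by cardiomyocyte marker counts and the other transcript lengths were chosen after seeing the data. Libraries of a group differed by more than sampling noise (lowest chi-square over its degrees of freedom 6.99 in 30 pairs), and all 12 were kept. The 10 genes and all gene lists were chosen with earlier results of these data known. Besides the 10 genes, the text names Sdhaf4, rows overlapping the 10, and the 8 genes most like their mean. It also names the tested genes with the lowest and highest fold change of each list, and all 7 genes of the carnitine shuttle list. Chkb, Csf1r, Mrc1, Ckm, Mylpf, Ppara, Rxrb, Rxrg, Etfa, Etfb, Etfdh and Acad9 were named after their values were seen. Esrra is named because it was not tested. Library totals of at least 23747014 counts leave the 10 genes at 3404 to 61126 counts per library, so counting error is small beside the spread between libraries.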

Additional observations from a re-analysis of the deposited data

Results flagged for a closer look

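Within a group of 6, a single library far from the others was looked for in 52 groups of values and found in 2, where chance would give about 2.6. The Acads to Acadm log2 ratio of KO replicate 3 was -2.91, while the other KO libraries lay between -2.66 and -2.53. Sdhaf4 in KO replicate 1 was at 2.73 CPM, while the other KO libraries lay between 2.25 and 2.41 CPM.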

How the results depend on the processing

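Across 22 fits (other scalings, filters, tests, a replicate block and each library left out), all genes kept their direction, and no result was reversed. All but Acadl kept their call at an adjusted p under 0.05. Hadh also passed the stricter threshold with limma-voom, with the replicate block, and without KO replicate 3, KO replicate 5 or WT replicate 4. Acadl ranged from -0.19 to -0.09 and passed only without KO replicate 3 (adjusted p = 0.0145; 0.0145 to 0.320 over all fits). Leaving out 1 library gave -0.51 to -0.42 for Acadvl, -1.46 to -1.26 for Acaa2 and -1.31 to -1.22 for Eci1. The Hadha to Hadhb log2 ratio difference was 0.07 to 0.10 with 1 library left out and lost its call in 9 of 12 cases. Same-numbered WT and KO libraries did not deviate together (r from -0.162 to 0.024), and only pair 3 had its own number as best match, so the replicate block is given here only: it kept 9 genes lower, and the ratio differences of Hadha to Hadhb (0.08) and Acads to Acadm (0.27) then had p = 0.0625 each in an exact sign-flip test over 6 pairs. With 1 library left out, carnitine shuttle genes called higher were 1 to 2, and uptake genes called higher 1 to 2 (2 without KO replicate 6). Uptake genes called lower were then 7 to 8, and peroxisomal genes called lower 8 to 10. Regulators were 2 to 3 lower and 2 to 3 higher, and the reference mitochondrial genes 7 to 9 lower and 2 to 3 higher. The WT ranks by level moved with the transcript length used. Dividing by cardiomyocyte markers left 7 of 9 separations. Depth limits Cpt1c, Acox2, Adig, Tnni2, Mylpf and Tnnt3, at a few CPM or less.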

Other observations

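The subunits of the electron transfer flavoprotein, which takes electrons from the acyl-CoA dehydrogenases, were both lower in KO. Etfa was at 896 ± 38.3 CPM in WT and 446 ± 69.2 CPM in KO, and Etfb at 63.4 ± 15.9 CPM in WT and 25.1 ± 2.35 CPM in KO (SD, n = 6). Their log2 fold changes were -1.005 and -1.34 (adjusted p = 3.37e-08 and 4.55e-06, edgeR). Etfdh, which passes the electrons on to ubiquinone, had a log2 fold change of -0.71 (828 to 506 CPM). The rows of Etfb and Etfdh overlap other rows with counted reads, and how reads were split between them is not given in the sources used here. Acad9, an acyl-CoA dehydrogenase known as an assembly factor of complex I, rose from 49.6 to 55.4 CPM (0.16, adjusted p = 0.0122), while the dehydrogenases Acadvl, Acadm and Acads fell. These genes were picked after their values had been seen.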
